A study of Homo sapiens with 6 samples.

Results

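The thioredoxins TXN and TXN2, the thioredoxin reductases TXNRD1 and TXNRD2, and the peroxiredoxins PRDX1, PRDX2, PRDX3, PRDX4, PRDX5 and PRDX6 were followed in MV411 cells treated with corilagin or with DMSO. The members were the rows of the deposited expression table whose Ensembl identifier maps to one of these symbols, which gave 10 of the 20036 genes listed. All 10 passed the filter on low values used for testing, a mean of at least 1 FPKM (fragments scaled to gene length and library total) over the 6 libraries. Thioredoxins are small proteins that reduce disulphide bonds in other proteins and become oxidised in doing so. Thioredoxin reductases, which are selenoproteins, restore them with electrons from NADPH. Peroxiredoxins are abundant peroxidases that remove hydrogen peroxide through a reactive cysteine, and most of them are returned to the reduced state by thioredoxin. TXNIP, named in the title of the study, binds reduced thioredoxin and inhibits it.

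MV411 is a human line of acute myeloid leukaemia with a KMT2A fusion and a FLT3 internal tandem duplication, labelled WT in genotype. The treated cells received corilagin, an ellagitannin (a plant polyphenol), for 48 h (3 libraries), and the control cells received the solvent DMSO for the same time (3 libraries). The sources used here give no dose for corilagin. The labels do not say whether the 3 libraries of a group stem from different cultures, so the spread behind the p-values is that between libraries and may be technical. The study asked, by its title, whether corilagin kills leukaemia cells by pyroptosis through TXNIP, caspase-3 and GSDME. In bulk RNA, fewer cells of a type and less RNA per cell cannot be told apart.

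The libraries held 18299789 to 21640689 fragments in the corilagin group and 17776956 to 20063657 in the DMSO group, inferred from the steps between FPKM values. Of 10 markers of myeloid leukaemia with a KMT2A fusion, 9 had a mean of at least 1 FPKM. The listed markers summed to 524 to 525 FPKM in corilagin libraries and 472 to 515 FPKM in DMSO libraries, a sum led by FLT3 at means of 311 FPKM with corilagin and 217 FPKM with DMSO. Other markers lay the other way, SPI1 at 111 FPKM with corilagin and 145 FPKM with DMSO and LYZ at 42.8 FPKM with corilagin and 68.5 FPKM with DMSO. The 3 erythroid markers were at 0 in every library. Among markers of other cell types, CD79A (B cell), ITGA2B (megakaryocyte) and KRT8 (epithelial) were above 1 FPKM, while MS4A1, PF4, EPCAM and CDH1 were at 0 and no T cell or fibroblast marker reached 1 FPKM. DMSO replicate 3 stood apart from DMSO replicates 1 and 2. A chi-square per gene on inferred fragments, higher for less alike libraries, was 84.0 and 67.0 between it and these 2. Between DMSO replicate 3 and the corilagin libraries it was 22.3 to 25.6. It was 4.37 between DMSO replicates 1 and 2, and 2.40 to 3.28 among the corilagin libraries. Among the 1233 tested genes with the lowest GC content of their longest transcript (31.3 to 39%), the mean deviation from the gene mean was 0.204 to 0.26 log2 units in corilagin libraries. It was 0.236 in DMSO replicate 3 but -0.497 and -0.433 in DMSO replicates 1 and 2. For this reason values against DMSO replicate 3 alone, without that library or after removal of the GC trend of each library stand beside those of all libraries. The part of the GC trend in the results below was not tested.

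The reactive residues of these proteins are written into their coding sequences, and short stretches around some of them are shown here. Because the stretches were cut at these residues, their likeness does not measure that of the whole members. They are coding-strand sequences of the longest annotated coding transcripts of GENCODE release 29, from 5′ to 3′. In the thioredoxins, capitals mark the codons of the paired active-site cysteines, of which the first is codon 32 in TXN and codon 90 in TXN2:
TXN: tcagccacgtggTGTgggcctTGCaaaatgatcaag
TXN2: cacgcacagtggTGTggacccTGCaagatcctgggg
In the reductases, capitals mark the in-frame TGA that is read as selenocysteine, followed by the last coding codon and the stop codon:
TXNRD1: agcatcctccaggctggctgcTGAggttaa
TXNRD2: gaccccacggtgacaggctgcTGAgggtaa
In the peroxiredoxins, capitals mark the codon of the peroxidatic cysteine, which is codon 52 in PRDX1, 51 in PRDX2, 108 in PRDX3, 124 in PRDX4, 100 in PRDX5 and 47 in PRDX6:
PRDX1: gacttcacctttgtgTGCcccacggagatc
PRDX2: gacttcacttttgtgTGCcccaccgagatc
PRDX3: gatttcacctttgtgTGTcctacagaaatt
PRDX4: gatttcacatttgtgTGTccaactgaaatt
PRDX5: gccttcacccctggaTGTtccaagacacac
PRDX6: gactttaccccagtgTGCaccacagagctt
Exact identity between members was short, and reads that align with mismatches were not examined. The longest identical run in the coding sequences of any pair of members was 17 bases, between PRDX1 and PRDX4, and no window of 150 bases (the read length) in the longest transcript of any member occurred in an annotated transcript of another gene.

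Of the 6 peroxiredoxin mRNAs, 3 fell with corilagin, and no member rose. PRDX4, the peroxiredoxin of the endoplasmic reticulum, fell to 0.535 of its DMSO level, PRDX2, a cytosolic peroxiredoxin, to 0.598, and PRDX6, the peroxiredoxin with a single reactive cysteine, to 0.728. The other 7 members did not pass the test, among them both thioredoxins and both reductases. The test was limma on log2(FPKM + 1) over all 6 libraries, with Benjamini-Hochberg adjustment over all 9868 genes tested and a threshold of 0.05. It called 13.5% of those genes lower and 11.9% higher, against 3 lower and 0 higher among the 10 members. When the libraries were rescaled to equal sums, the median of all genes moved by 0.10 log2 units and the share of higher genes among all calls became 60.5%, against 46.8% with the values as deposited. The same 3 members were then called lower and none higher, where 10.7% of all genes were called lower and 16.4% higher. The median log2 difference was -0.28 over the 10 members, and 0.035 over all genes tested. In 4 members every corilagin library lay below every DMSO library, a pattern found in 23.3% of all genes tested, and in the other 6 the groups overlapped.

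**Figure D1:**
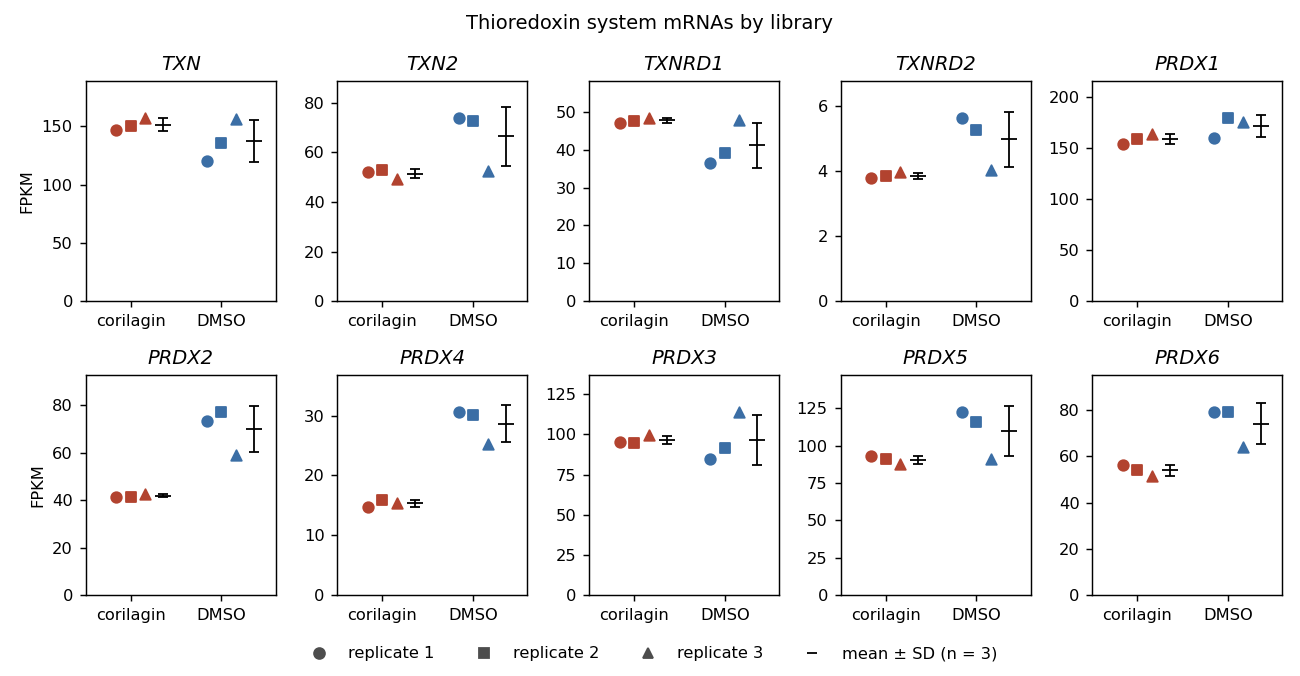
Level of each member in FPKM by library, with corilagin libraries in red at the left of each panel and DMSO libraries in blue at the right; symbols mark replicates and black bars the mean ± SD of 3 libraries. PRDX2, PRDX4, PRDX6 and TXNRD2 do not overlap between groups, and DMSO replicate 3 (blue triangle) lies apart from DMSO replicates 1 and 2 in most panels.

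TXN encodes the thioredoxin of the cytosol and nucleus. It stood at 147, 151 and 157 FPKM in the corilagin libraries, against 120.4, 136 and 157 FPKM in the DMSO libraries. The corilagin libraries were within a narrow band that DMSO replicate 3 shared, and the other DMSO libraries lay below it. The means were 152 ± 5.43 FPKM with corilagin and 138 ± 18.2 FPKM with DMSO (SD, n = 3 each), and the log2 difference was 0.15 (SE 0.106; limma, adjusted p = 0.298). Without DMSO replicate 3 it was 0.24 (limma, adjusted p = 0.00106), against DMSO replicate 3 alone -0.048 and with the GC trend removed -0.068. After removal of the GC trend the sign was negative without DMSO replicate 3 as well (-0.073). TXN2, the mitochondrial thioredoxin, had 52.0, 52.9 and 49.3 FPKM with corilagin and 74.0, 72.6 and 52.7 FPKM with DMSO. DMSO replicate 3 again lay among the corilagin libraries. The log2 difference of TXN2 was -0.35 (SE 0.136; limma, adjusted p = 0.0899), and it was called lower after removal of the GC trend (-0.19, limma, adjusted p = 0.0419) and without DMSO replicate 3 (-0.50, limma, adjusted p = 6.18e-07), but not against DMSO replicate 3 alone (-0.037, limma, adjusted p = 0.616).

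TXNRD1 encodes the cytosolic reductase, a known target of the oxidative stress factor NRF2. Its level was 47.1, 47.6 and 48.4 FPKM in corilagin libraries and 36.5, 39.0 and 47.8 FPKM in DMSO libraries. The corilagin libraries were level with DMSO replicate 3 and above DMSO replicates 1 and 2. The log2 difference was 0.22 (SE 0.109; limma, adjusted p = 0.152). It was -0.0031 against DMSO replicate 3 alone, 0.33 without that library (limma, adjusted p = 2.19e-05) and, once the GC trend was removed, 0.11 (limma, adjusted p = 0.188). TXNRD2, the mitochondrial reductase, was the member with the lowest level per length, at 3.79, 3.85 and 3.97 FPKM with corilagin and 5.65, 5.28 and 4.03 FPKM with DMSO. The groups did not overlap, but DMSO replicate 3 was only just above the highest corilagin library. The log2 difference was -0.29 (SE 0.117; limma, adjusted p = 0.0999), -0.048 against DMSO replicate 3 alone and -0.41 without it (limma, adjusted p = 7.20e-05).

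PRDX1 and PRDX2 are the cytosolic peroxiredoxins with a pair of reactive cysteines (typical 2-Cys). PRDX1 had 154, 159 and 164 FPKM in the corilagin libraries and 159.7, 179.9 and 175 FPKM in the DMSO libraries, and the groups overlapped. Its log2 difference was -0.10 (SE 0.0768; limma, adjusted p = 0.306); its sign turned when libraries were rescaled to equal sums (0.015) or quantile normalised (0.027), and against DMSO replicate 3 alone it was called lower (-0.14, limma, adjusted p = 0.0366). It did not pass without DMSO replicate 3 (-0.089, limma, adjusted p = 0.127) or after removal of the GC trend (-0.024, limma, adjusted p = 0.82). PRDX2, at chr19:12796820-12801859 on the minus strand (GRCh38, GENCODE release 29), had 41.5, 41.5 and 42.5 FPKM with corilagin, against 73.5, 77.4 and 59.0 FPKM with DMSO. Every corilagin library lay below the lowest DMSO library, which was again replicate 3. The means were 41.8 ± 0.573 FPKM with corilagin and 70.0 ± 9.67 FPKM with DMSO (SD, n = 3 each), a log2 difference of -0.72 (SE 0.110; limma, adjusted p = 0.00803). The fall was -0.49 against DMSO replicate 3 alone, -0.83 without it and -0.56 with the GC trend removed, all called. Only 213 of the 9868 genes tested had a lower log2 difference. Leaving out any 1 corilagin library ended the call, with adjusted p of 0.0532 without replicate 1, 0.0532 without replicate 2 and 0.0517 without replicate 3 (limma), while the difference stayed between -0.71 and -0.73.

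PRDX4 is the typical 2-Cys peroxiredoxin of the endoplasmic reticulum, where it uses hydrogen peroxide to drive disulphide formation in newly made proteins. The gene lies at chrX:23664262-23686399 on the plus strand (GRCh38, GENCODE release 29). It stood at 14.7, 15.9 and 15.4 FPKM with corilagin and at 30.7, 30.1 and 25.2 FPKM with DMSO. The highest corilagin library was well below the lowest DMSO library. The means were 15.3 ± 0.618 FPKM with corilagin and 28.7 ± 3.02 FPKM with DMSO (SD, n = 3 each), with a log2 difference of -0.86 (SE 0.0979; limma, adjusted p = 0.00348). Of the 9868 genes tested, 97 had a lower log2 difference. Against DMSO replicate 3 alone PRDX4 was at 0.609 of its level (log2 difference -0.68, limma, adjusted p = 1.92e-05). It was called lower under all 25 alternatives tried, with log2 differences between -0.94 and -0.67 and adjusted p of at most 0.0322 (limma). PRDX3, the typical 2-Cys peroxiredoxin of the mitochondrial matrix, had 95.3, 94.9 and 99.5 FPKM in corilagin libraries, between the 84.5 and 91.2 FPKM of DMSO replicates 1 and 2 and the 114 FPKM of DMSO replicate 3. Its log2 difference was 0.010 (SE 0.117; limma, adjusted p = 0.95). It was called higher without DMSO replicate 3 (0.14, limma, adjusted p = 0.0132), but lower against DMSO replicate 3 alone (-0.24, limma, adjusted p = 0.00217) and after removal of the GC trend (-0.19, limma, adjusted p = 0.0151).

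PRDX5, an atypical 2-Cys peroxiredoxin found in mitochondria, peroxisomes and the cytosol, had 93.0, 90.8 and 87.7 FPKM with corilagin and 123, 116 and 91.2 FPKM with DMSO. DMSO replicate 3 lay among the corilagin libraries. Its log2 difference of -0.27 (SE 0.118) did not pass (limma, adjusted p = 0.119), and was -0.013 against DMSO replicate 3 alone, -0.054 with the GC trend removed and -0.40 without DMSO replicate 3 (limma, adjusted p = 4.57e-06). PRDX6 differs from the other peroxiredoxins in that glutathione, rather than thioredoxin, reduces it, and it also has phospholipase activity. The gene lies at chr1:173477266-173488807 on the plus strand (GRCh38, GENCODE release 29). Its level was 56.1, 54.2 and 51.5 FPKM with corilagin and 78.9, 79.3 and 64.0 FPKM with DMSO. The groups did not overlap. The means were 53.9 ± 2.31 FPKM with corilagin and 74.1 ± 8.74 FPKM with DMSO (SD, n = 3 each), a log2 difference of -0.44 (SE 0.103; limma, adjusted p = 0.0255). The fall was -0.24 against DMSO replicate 3 alone, a ratio of 0.843 (limma, adjusted p = 0.00511), and -0.54 without it (limma, adjusted p = 4.43e-07). Removing the GC trend gave PRDX6 a difference of -0.54 as well (limma, adjusted p = 0.00591). PRDX6 lost its call when any library other than DMSO replicate 3 was left out, with adjusted p of 0.0922, 0.103 and 0.117 without corilagin replicates 1, 2 and 3, and 0.0823 and 0.108 without DMSO replicates 1 and 2 (limma).

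**Figure D2:**
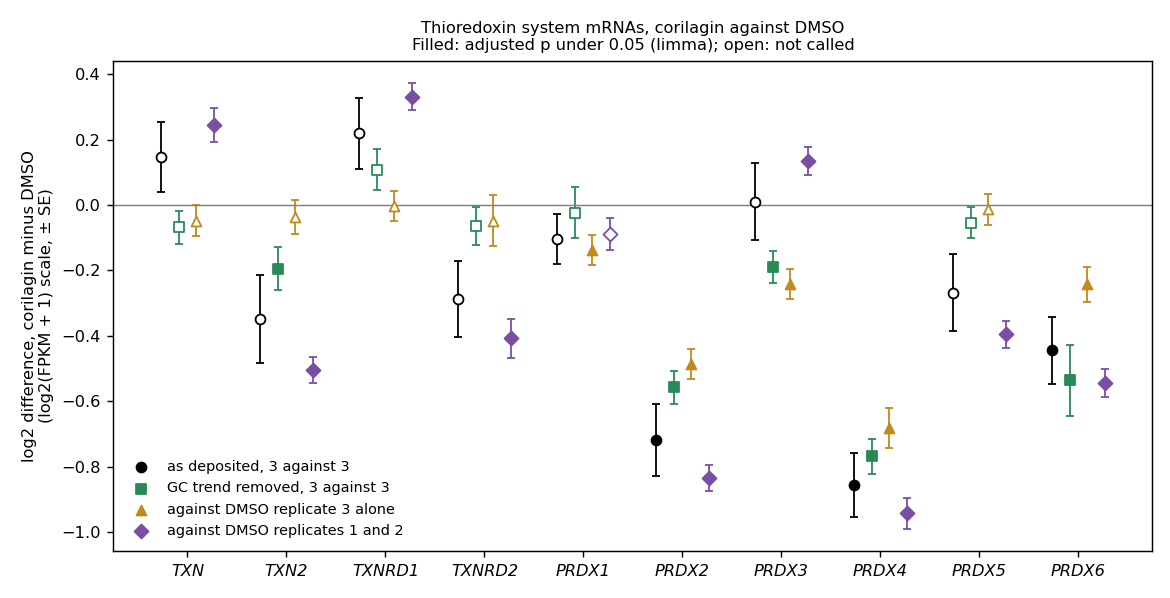
Log2 difference of each member, corilagin minus DMSO, with its standard error (vertical axis, log2(FPKM + 1) scale) for all libraries as deposited, with the GC trend removed, against DMSO replicate 3 alone, and against DMSO replicates 1 and 2. PRDX2, PRDX4 and PRDX6 are below 0 and filled (called) in all 4, while TXN, TXNRD1 and PRDX3 change sign.

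The dependence on DMSO replicate 3 showed most clearly in the count of members called. Without that library 9 of 10 members were called, 6 lower and 3 higher, where 36.5% of all genes tested were called lower and 40.8% higher. With DMSO replicate 3 as the only control, 5 members were called lower and 0 higher, where 18.6% of all genes were called lower and 19.4% higher. In that fit the single DMSO library was assumed to vary as the corilagin libraries did. With the GC trend removed, 5 members were called lower (PRDX2, PRDX3, PRDX4, PRDX6 and TXN2) and 0 higher, where 23.0% of all genes were called lower and 21.4% higher. PRDX2, PRDX4 and PRDX6 were called without DMSO replicate 3 and with the GC trend removed. Against DMSO replicate 3 alone their log2 differences were -0.49, -0.68 and -0.24. After removal of the GC trend these 3 were called in 6 of 6 fits that left out 1 library each. Those fits called 29.8 to 65.4% of all genes in either direction.

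**Figure D3:**
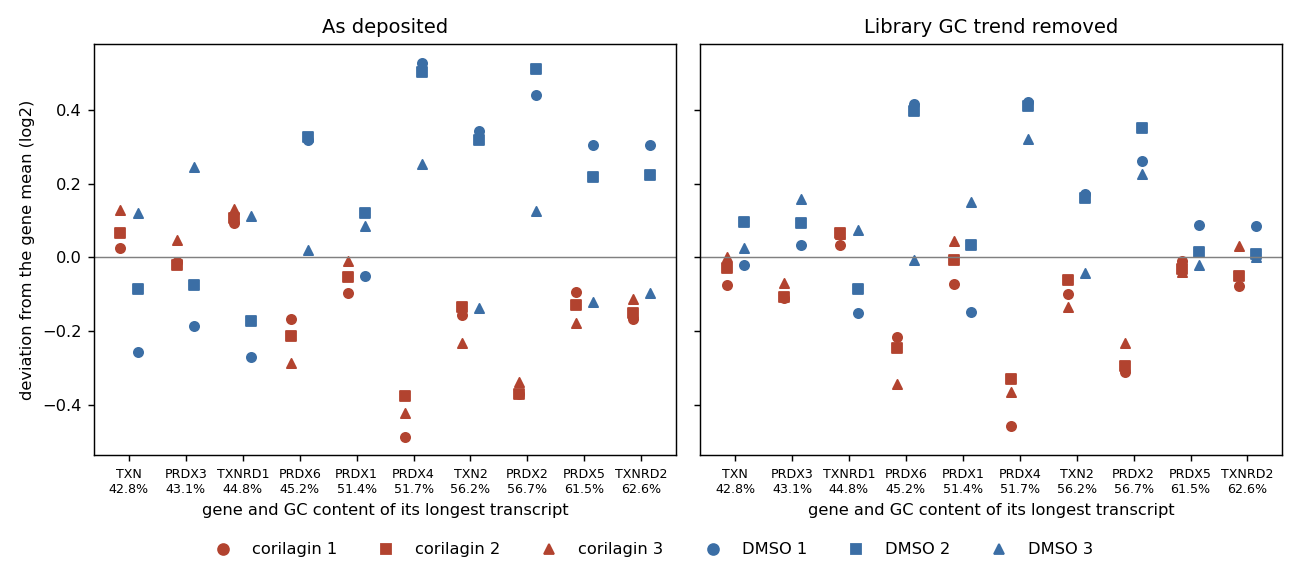
Deviation of each library from the gene's mean (vertical axis, log2) for the 10 members ordered by the GC content of the longest transcript (horizontal axis, percent), as deposited at the left and with the GC trend of each library removed at the right; corilagin libraries are red and DMSO libraries blue. As deposited, DMSO replicates 1 and 2 lie below 0 for TXN, PRDX3 and TXNRD1 (42.8 to 44.8% GC). They lie above 0 for TXN2, PRDX2, PRDX5 and TXNRD2 (56.2 to 62.6% GC), but also for PRDX6 (45.2%) and PRDX4 (51.7%). For PRDX1 (51.4%) they lie on both sides of 0. At the right, PRDX2, PRDX3, PRDX4, PRDX6 and TXN2 are separate between groups. There DMSO replicate 3 of PRDX6 (-0.0067) still lies below DMSO replicates 1 and 2 (0.41 and 0.40).

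The longest transcripts of the 10 members spanned 42.8 to 62.6% GC, with 45.2% for PRDX6, 51.7% for PRDX4 and 56.7% for PRDX2. TXNRD2 and PRDX5, the members richest in GC, had -0.064 and -0.054 after removal. TXN and PRDX3, the poorest, had -0.068 and -0.19. These 4 had -0.29, -0.27, 0.15 and 0.010 in that order with the values as deposited.

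**Figure D4:**
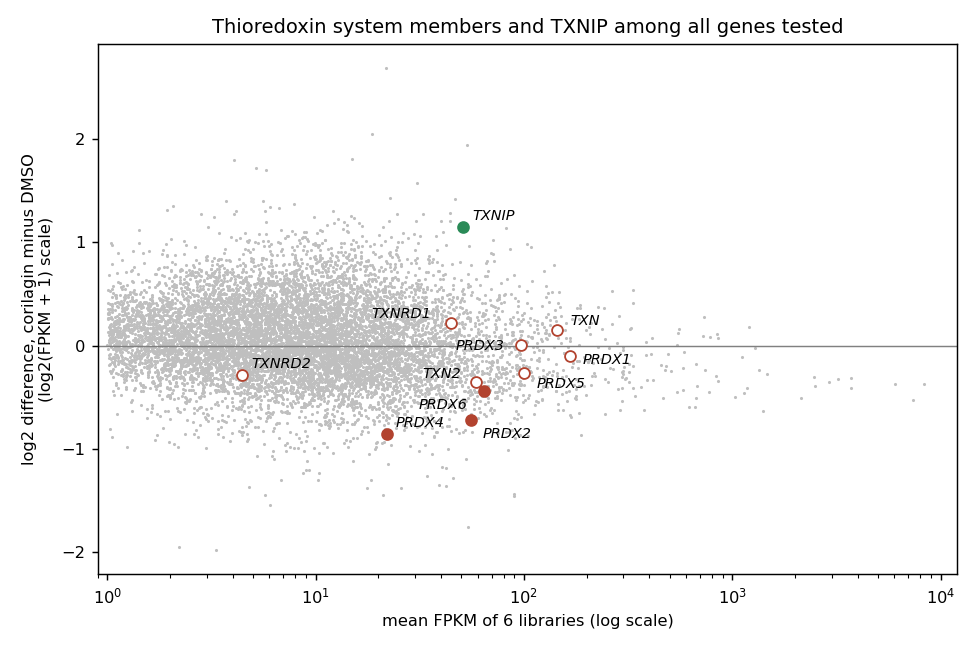
Log2 difference, corilagin minus DMSO (vertical axis), against the mean FPKM of the 6 libraries (horizontal axis, log scale) for the 9868 genes tested in grey, the 10 members in red and TXNIP in green; filled symbols passed the limma test. PRDX4 (-0.86) and PRDX2 (-0.72) lie near the lower edge of the cloud, the other members inside it, and TXNIP (1.15) near the upper edge.

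The total of the peroxiredoxin family and the shares of its members are described here without a test. The summed level of the 6 peroxiredoxins was 455, 457 and 461 FPKM with corilagin, against 550.2, 574 and 529 FPKM with DMSO, a ratio of means of 0.830. With every library rescaled to the same FPKM sum, the ratio was 0.903. The groups did not overlap in this sum on either scale, and no test was made of it. The shares and ratios within a library that follow do not depend on that scaling. PRDX2, PRDX4 and PRDX6 were grouped because these same data called them lower, so their smaller share follows from those calls. Together they made up 24.3 ± 0.491% of the summed peroxiredoxin FPKM with corilagin and 31.3 ± 2.85% with DMSO (SD, n = 3 each). DMSO replicate 3 had 28.0%, against 33.3% and 32.6% in DMSO replicates 1 and 2. PRDX1, whose share grows as theirs shrinks, made up 34.8 ± 0.852% with corilagin and 31.2 ± 2.06% with DMSO. The share of PRDX3 was 20.8 to 21.6% with corilagin and 21.6% in DMSO replicate 3. In DMSO replicates 1 and 2 it was 15.4% and 15.9%. PRDX2 stood at 0.263 of the level of PRDX1 with corilagin and at 0.409 with DMSO, and PRDX4 at 0.0963 of it with corilagin and at 0.168 with DMSO. The mitochondrial members TXN2, TXNRD2 and PRDX3 together gave 151, 152 and 153 FPKM with corilagin and 164, 169 and 171 FPKM with DMSO, but at equal sums these groups overlapped, with a ratio of means of 0.980. The ratio of TXNRD1 to TXN was 0.315 ± 0.00692 with corilagin and 0.299 ± 0.00928 with DMSO, and that of TXNRD2 to TXN2 was 0.0754 ± 0.00448 with corilagin and 0.0752 ± 0.00220 with DMSO (SD, n = 3 each). The ratio of the cytosolic pair did not overlap between groups, and that of the mitochondrial pair did.

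By level per length, PRDX1 (159 FPKM) and TXN (152 FPKM) came first with corilagin, and their libraries overlapped. PRDX3, PRDX5, PRDX6, TXN2, TXNRD1, PRDX2, PRDX4 and TXNRD2 followed in that order, and among these neighbours only PRDX6 and TXN2 overlapped. With DMSO the order was PRDX1, TXN, PRDX5, PRDX3, PRDX6, PRDX2, TXN2, TXNRD1, PRDX4 and TXNRD2. There the overlapping neighbours were TXN and PRDX5, PRDX5 and PRDX3, PRDX6 and PRDX2, and PRDX2 and TXN2. PRDX2 thus stood above TXNRD1 in mean level with DMSO and below it with corilagin. The gene length inferred from the deposited values was 505 bases for TXN and 825 bases for TXN2, against 1142 and 2050 bases of annotated exons in GENCODE release 29, so the FPKM of these 2 genes would be lower on the annotated lengths and their places in both orders rest on the inferred ones. For a single gene the ratio between groups does not depend on the length. A sum over genes does, so the sum of TXN2, TXNRD2 and PRDX3 given above also rests on the inferred length of TXN2.

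TXNIP, the inhibitor that binds thioredoxin at its active-site cysteines, rose. It had 72.0, 71.6 and 68.1 FPKM with corilagin and 34.1, 32.4 and 27.5 FPKM with DMSO, without overlap. The log2 difference was 1.15 (SE 0.0965; limma, adjusted p = 0.00189), a 2.25-fold rise. It was 1.33 against DMSO replicate 3 alone, 1.06 without that library and 0.99 after removal of the GC trend, all called. The ratio of TXNIP to TXN in FPKM was 0.491, 0.475 and 0.433 with corilagin, against 0.283, 0.239 and 0.176 with DMSO. The groups did not overlap, and the exact 2-sided permutation test on the log2 ratio gave p = 0.1, the smallest that 3 against 3 libraries allow.

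Around these members, 64 genes of the pathway in 7 lists were examined, of which 57 passed the filter on low values. With the values as deposited 8 rose, 8 fell and 41 did not pass, with a median log2 difference of 0.0020, against 0.035 over all genes tested; rescaled to equal sums, 11 were called higher and 4 lower. Both counts are read against the shares of all genes given above, 11.9% higher and 13.5% lower as deposited and 16.4% higher and 10.7% lower at equal sums, and lie near them. Among the inhibitor, partners and repair enzymes of the system, 6 of 9 were tested. Of these, TXNIP and the stress-induced sestrins SESN1 (0.41) and SESN2 (0.78) rose, while APEX1, a DNA repair endonuclease that takes electrons from thioredoxin to activate transcription factors, fell. APEX1 had 121, 124 and 119.5 FPKM with corilagin and 174, 169.5 and 151 FPKM with DMSO, without overlap (log2 difference -0.44, limma, adjusted p = 0.0128; -0.32 against DMSO replicate 3 alone). SRXN1, sulfiredoxin, which repairs overoxidised peroxiredoxins, was under the filter at means of 0.0516 FPKM with corilagin and 0.0638 FPKM with DMSO.

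The list of substrates of thioredoxin took in every subunit of ribonucleotide reductase, whichever of them thioredoxin reduces. Of its 6 tested genes, the small subunits RRM2 and RRM2B rose and none fell. RRM1, the large subunit, did not pass (log2 difference 0.47, limma, adjusted p = 0.0530). RRM2B, the subunit induced by p53, had 39.1, 39.9 and 40.6 FPKM with corilagin and 13.4, 15.0 and 30.2 FPKM with DMSO. No library overlapped, but DMSO replicate 3 was closer to the corilagin libraries than to the other DMSO libraries. The log2 difference was 1.08 (limma, adjusted p = 0.0303), and 0.39 against DMSO replicate 3 alone (limma, adjusted p = 0.000170), and 0.61 after removal of the GC trend. Of the 18 other proteins with a thioredoxin fold, 2 rose, 4 fell and 12 did not pass. TXNDC16, a protein of the endoplasmic reticulum lumen, rose to 5.60 ± 0.249 FPKM with corilagin, against 2.26 ± 0.868 FPKM with DMSO (SD, n = 3 each; log2 difference 1.05, limma, adjusted p = 0.00984). The difference was 0.63 against DMSO replicate 3 alone and 0.62 after removal of the GC trend. GLRX5, the mitochondrial glutaredoxin of iron-sulphur cluster assembly, fell to 24.7 ± 0.774 FPKM with corilagin, against 35.0 ± 3.42 FPKM with DMSO (SD, n = 3 each; log2 difference -0.48, limma, adjusted p = 0.0147). Against DMSO replicate 3 alone its difference was -0.33.

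NADPH feeds the reductases, and of 9 genes of its supply 1 rose, 1 fell and 7 did not pass. ME1, the cytosolic malic enzyme, had 4.33, 4.23 and 3.81 FPKM with corilagin and 1.89, 1.75 and 1.84 FPKM with DMSO, without overlap and with DMSO replicate 3 between the other DMSO libraries. Its log2 difference was 0.86 (limma, adjusted p = 0.00198), 0.85 against DMSO replicate 3 alone and 0.48 after removal of the GC trend. NADK, which makes NADP from NAD, fell to 17.6 ± 0.457 FPKM with corilagin, against 24.0 ± 2.98 FPKM with DMSO (SD, n = 3 each; log2 difference -0.42, limma, adjusted p = 0.0304). The difference of NADK was -0.22 against DMSO replicate 3 alone and -0.26 after removal of the GC trend. Among 6 tested other peroxide and superoxide enzymes, GPX4, the selenoprotein that reduces lipid hydroperoxides, fell to 127 ± 3.99 FPKM with corilagin, against 179 ± 30.5 FPKM with DMSO (SD, n = 3 each; log2 difference -0.47, limma, adjusted p = 0.0388), and 5 did not pass. The difference of GPX4 was -0.17 against DMSO replicate 3 alone and -0.25 after removal of the GC trend. Of 6 genes for selenocysteine insertion, which the reductases need, EEFSEC, the elongation factor for selenocysteine, had a log2 difference of -0.47 (limma, adjusted p = 0.0468), but did not pass against DMSO replicate 3 alone (-0.16, limma, adjusted p = 0.0786). None of the 6 oxidases and isomerases of the endoplasmic reticulum that act with PRDX4 passed the test with the values as deposited. P4HB, protein disulphide isomerase, had -0.37 (limma, adjusted p = 0.0648). With the GC trend removed 3 of them (ERO1A, P4HB and PDIA4) were called lower, where 23.0% of all genes were. ERO1A turned its sign between settings. It had -0.17 there (limma, adjusted p = 0.0493), 0.23 as deposited and 0.38 without DMSO replicate 3 (limma, adjusted p = 3.2e-05).

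**Figure D5:**
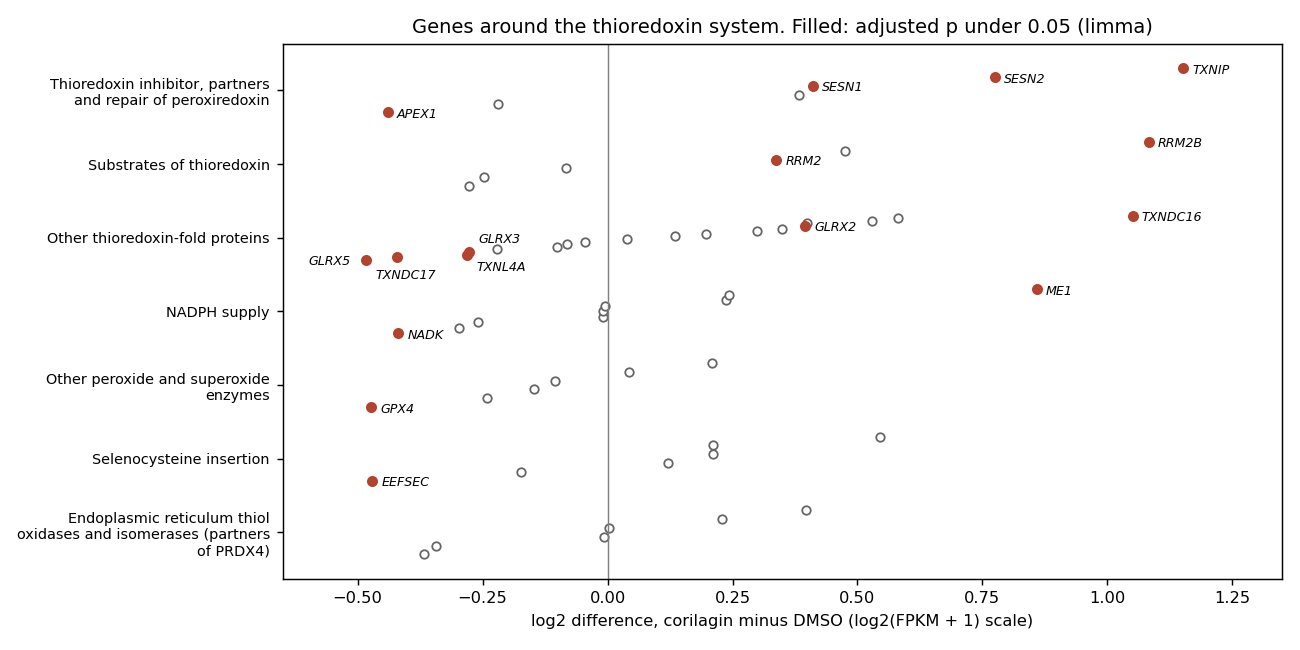
Log2 difference, corilagin minus DMSO (horizontal axis, log2(FPKM + 1) scale), of the 57 tested genes in the 7 lists around the thioredoxin system, 1 list per band; filled and named genes passed the limma test. TXNIP, RRM2B and TXNDC16 lie above 1 and no gene lies below -0.50.

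These calls also depended on single libraries. Among the 57, 2 were called without corilagin replicate 1 and 2 without corilagin replicate 2, where 3.25% and 3.11% of all genes tested were called. Without corilagin replicate 3, 3 were called (3.59% of all genes), without DMSO replicate 1, 6 (8.63%), without DMSO replicate 2, 4 (5.28%), and without DMSO replicate 3, 46 (77.3%). Of the 10 members, 1, 1, 1, 2, 2 and 9 were called in these fits in the same order. TXNIP and ME1 were called in 6 of 6 such fits, TXNDC16 in 3, APEX1 in 2, and RRM2B, GLRX5, NADK, GPX4 and EEFSEC in 1, the fit without DMSO replicate 3. With the GC trend removed, APEX1, RRM2B, TXNDC16, GLRX5, NADK and GPX4 were called in 6 of 6 fits, EEFSEC in 5 and ME1 in 2. Those fits called 29.8 to 65.4% of all genes in either direction.

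Promoter sequence was available for 7 members in RefSeq (GRCh38.p14), taken as the 250 bases before the RefSeq start of the gene, and is shown for the 2 members that fell most and for TXNRD1, the member best known as a target of NRF2. Each was searched on both strands for the antioxidant response element core TGACNNNGC, found in 11.0% of 27305 promoters of the same length, for the E-box CACGTG (6.49%), for CCAAT (33.0%) and for the GC box GGGCGG (42.3%). Capitals mark the matches, and bases are written on the gene's strand, from 5′ to 3′:
PRDX4, chrX:23667243-23667492, plus strand: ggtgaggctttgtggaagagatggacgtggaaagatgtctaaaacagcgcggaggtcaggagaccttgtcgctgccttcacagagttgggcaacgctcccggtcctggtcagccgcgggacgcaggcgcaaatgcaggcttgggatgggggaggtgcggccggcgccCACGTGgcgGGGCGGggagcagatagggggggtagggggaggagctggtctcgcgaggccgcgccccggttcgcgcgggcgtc
PRDX2, chr19:12801801-12802050, minus strand: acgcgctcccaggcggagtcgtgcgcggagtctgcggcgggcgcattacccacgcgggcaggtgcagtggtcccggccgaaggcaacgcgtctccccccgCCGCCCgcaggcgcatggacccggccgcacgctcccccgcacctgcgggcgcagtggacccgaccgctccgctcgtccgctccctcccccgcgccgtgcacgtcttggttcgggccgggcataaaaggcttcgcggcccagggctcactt
TXNRD1, chr12:104215529-104215778, plus strand: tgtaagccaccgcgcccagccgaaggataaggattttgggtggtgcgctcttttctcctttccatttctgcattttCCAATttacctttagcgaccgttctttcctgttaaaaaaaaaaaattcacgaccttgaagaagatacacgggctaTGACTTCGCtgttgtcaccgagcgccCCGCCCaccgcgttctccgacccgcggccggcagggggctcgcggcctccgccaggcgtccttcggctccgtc
PRDX4 held an E-box and a GC box, PRDX2 a single GC box, and TXNRD1 an antioxidant response element core, a CCAAT box and a GC box. Among the other promoters searched, TXN, TXNRD2 and PRDX3 held 3 GC boxes each, PRDX5 held 2, and PRDX3 also held an E-box. These matches describe the sequence only. The RefSeq start used here is not always the GENCODE start. The PRDX4 window lies inside the gene's span in GENCODE release 29 (chrX:23664262-23686399). The PRDX2 window overlaps that of its gene (chr19:12796820-12801859).

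The genes whose profile over the 6 libraries was most like that of PRDX2, by Pearson correlation of log2(FPKM + 1) among 6561 genes compared, were APRT (r = 0.9998), GRWD1 (r = 0.9994) and SCRIB (r = 0.9992). APRT had 25.8, 25.7 and 26.7 FPKM with corilagin and 49.3, 52.3 and 38.0 FPKM with DMSO. For TXN they were RPL6, DYNC1I2 and RPF1 (r between 0.9901 and 0.9904), and for TXNRD1 they were MTIF2, FBXO5 and ZNF195 (r between 0.9996 and 0.9999). MTIF2 had 19.2, 19.5 and 20.3 FPKM with corilagin and 9.98, 11.9 and 19.8 FPKM with DMSO, so its DMSO replicate 3 also lay with the corilagin libraries. With n = 6 libraries that share this split such values were common: 983 genes reached r above 0.95 with PRDX2, 251 with TXN and 1337 with TXNRD1.

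Where members overlap neighbouring genes, reads could be left out or credited to the other gene, depending on counting settings that are not given. The overlaps below are of whole gene spans, and overlap of exons was not examined. PRDX2 lies within the annotated span of HOOK2 on the same strand over 5040 bases, and HOOK2 stood at 7.47 ± 0.190 FPKM with corilagin and 6.54 ± 0.336 FPKM with DMSO (SD, n = 3 each). PRDX1 overlaps MMACHC over 2347 bases on the opposite strand, and the sources used here do not say whether strand was kept. The level of MMACHC was 2.60 ± 0.229 FPKM with corilagin and 3.23 ± 0.0414 FPKM with DMSO (SD, n = 3 each), far below that of PRDX1. Pseudogenes named after TXN (7), PRDX2 (4), PRDX3 (4), PRDX1 (1) and PRDX4 (1) are annotated. None held an identical stretch of 150 bases of the member's longest transcript, but nearly identical stretches were not searched for.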

How the data were processed

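Poly(A) RNA was purified with oligo-dT beads and sequenced as paired reads of 150 bases, per the labels' protocols. The submitters' processing notes name fastp 0.22.0, HISAT2 2.1.0, HTSeq 0.9.1, DESeq 1.38.3 and GRCh38, without settings; nothing used here states whether strand was kept. Values of 20036 Ensembl genes in 6 libraries came as 1 table, in FPKM as the authors deposited them, with columns named as in the labels. Being scaled to length and total, FPKM of all genes can shift with a few abundant ones. Fragments per gene and library totals were inferred from the steps between FPKM values (15921 genes above 0). The members had 523 to 6969 fragments per library, and their number limits precision.

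Groups were compared by limma 3.58.1 (R 4.3.3; lmFit, then eBayes with trend, 2-sided, no covariates) on log2(FPKM + 1), over 9868 genes averaging 1 FPKM or more, with Benjamini-Hochberg adjustment and a threshold of 0.05. Log2 differences on that scale understate changes of low genes, and folds are ratios of mean FPKM. The GC trend was removed per library with a natural spline of 5 df over 9859 genes with an annotated transcript in GENCODE release 29. Alternatives were other pseudocounts, filters and scalings, GC and length trends, a replicate block, limma-voom on inferred fragments, and left-out libraries. Scripts were tested on simulated data. The members and lists were chosen with earlier results of these data known. Named genes were the members, TXNIP, and the called gene with the largest rise and fall in each list. The 3 genes most alike in profile to each of TXN, TXNRD1 and PRDX2 (mean of at least 5 FPKM) were also named. SESN1, SESN2, SRXN1, RRM1, RRM2, P4HB, ERO1A and PDIA4 were named after their values were seen.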

Additional observations from a re-analysis of the deposited data

How the results depend on the processing

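Of the called members, PRDX4 was called in 25 of 25 alternatives, PRDX2 in 22 and PRDX6 in 20. Leaving out 1 library moved the number of genes called between 307 and 7627 (2502 with all), of members between 1 and 9 (3 with all) and of related genes between 2 and 46 (16 with all), and the log2 ratio of TXNIP to TXN between 0.82 and 1.16 (1.005 with all). With the GC trend removed, 4380 genes, 5 members and 27 related genes were called; with GC and length trends removed 4373 genes and 29 related genes; with the GC trend removed and the replicate block 4311 genes, 5 members and 28 related genes; without DMSO replicate 3 and with the GC trend removed 6446 genes, 6 members and 38 related genes; against DMSO replicate 3 alone 5 members and 27 related genes. The cause was not tested.

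Same-numbered libraries deviated together with correlations of 0.28, 0.08 and 0.34, of which 1 was not over 0.1, so the numbers were not taken as pairs. Each corilagin library correlated best with the DMSO library of its own number, but DMSO replicate 2 correlated best with corilagin replicate 1. The replicate block gave 2877 genes, 3 members and 20 related genes.

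Signs turned only in members that were not called with the values as deposited, to these log2 differences. TXN had -0.068 with the GC trend removed, with or without the block, -0.048 against DMSO replicate 3 alone, and, with the GC trend removed, -0.048, -0.071 and -0.087 without corilagin replicates 1, 2 and 3 and -0.096, -0.037 and -0.073 without DMSO replicates 1, 2 and 3. TXNRD1 had -0.0031 against DMSO replicate 3 alone. PRDX1 had 0.015 at equal sums, 0.027 after quantile normalisation, 0.051 with GC and length trends removed, and, with the GC trend removed, 0.0061 without corilagin replicate 1 and 0.045 without DMSO replicate 3. PRDX3 had -0.038 with median-of-ratios scaling, -0.19 with the GC trend removed, with or without the block, -0.16 with GC and length trends removed, -0.24 against DMSO replicate 3 alone and -0.080 to 0.14 when 1 library was left out. With the GC trend removed PRDX3 had -0.183, -0.184 and -0.203 without corilagin replicates 1, 2 and 3 and -0.221, -0.191 and -0.159 without DMSO replicates 1, 2 and 3. PRDX5 had 0.045 with GC and length trends removed.

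The ratio of the summed peroxiredoxin level, 0.830 as deposited, was 0.903 at equal sums, a setting chosen after seeing the data.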
